A study of Homo sapiens with 3 samples.

Results

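The methylation of 4 stretches of the genome was described CpG by CpG in Hep3B cells with and without SOX4: the surroundings of 1 kb windows in ANO4, in ADCY9, near the start of SBNO2 and in PPP2R2C. The windows had been selected on their measured methylation in these same libraries, as windows among those with the highest gain in both SOX4 knockout lines over parental cells, so the height of the gain inside them is a description and supports nothing. All CpGs within 20 kb of a window were taken that had at least 5 reads in all 3 libraries, with the reads of both strands summed. These were 448 CpGs of 2744301 in the whole data set, 31 inside the windows and 417 in the flanks. The ANO4 locus held 14 of 14 CpGs with any read, ADCY9 49 of 60, SBNO2 283 of 308 and PPP2R2C 102 of 111.

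Hep3B is a human hepatocellular carcinoma cell line. The data set had 3 libraries: 1 of parental Hep3B cells, with SOX4 intact, and 1 from each of 2 Hep3B SOX4 knockout lines, called line 1 and line 2 as they are numbered in the labels. SOX4, a member of the SOX family, is a DNA-binding regulator of transcription. The knockout lines had been made with CRISPR/Cas9 and were kept in puromycin medium. Whether each came from 1 cell is not given in the sources used here, and the edit at SOX4 was not checked. DNA was captured with a probe set for CpGs, treated with bisulfite and sequenced, and the share of reads that still show a C at a CpG is its methylation level. Because the parental group had 1 library, every test below compares libraries and not conditions, and an exact permutation test of 1 library against 2 could not go below p = 0.333.

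In mammalian DNA most CpGs carry a methyl group, while CpG-rich stretches at gene starts are usually free of it. Methylation at a start is known to go with a silent gene, and methylation inside a gene body is common in active genes. ANO4 encodes a membrane protein of the anoctamin family, which moves ions or lipids across membranes. ADCY9 encodes an adenylyl cyclase, an enzyme that makes the messenger cyclic AMP. SBNO2 encodes a homolog of the fly protein strawberry notch and acts as a transcriptional regulator in inflammatory signalling. PPP2R2C encodes a B-type regulatory subunit of protein phosphatase 2A, which directs that enzyme to its substrates.

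To show which bases the reads cover at gene starts of these loci, 3 RefSeq promoters were placed in the files' own GRCh37 positions by the spacing of their CpGs, with no conversion between builds. Each run gives the 250 bases before the start, 5′ to 3′ on the gene's strand, and the capitals mark the CpGs at which methylation was read. The first belongs to LOC102725180, a long non-coding RNA that overlaps SBNO2, because a second patch of higher methylation in line 1 began at its start. The others are the starts of ANO4 and PPP2R2C that could be placed, shown because the first stood higher in both knockout lines and the second did not.
LOC102725180 (chr19:1168582-1168831, + strand): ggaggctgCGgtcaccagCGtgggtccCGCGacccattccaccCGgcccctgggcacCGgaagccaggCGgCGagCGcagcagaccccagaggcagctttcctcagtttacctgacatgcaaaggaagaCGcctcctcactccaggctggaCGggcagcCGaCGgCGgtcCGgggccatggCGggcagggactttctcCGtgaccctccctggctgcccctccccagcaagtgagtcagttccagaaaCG
ANO4 (chr12:101188304-101188553, + strand): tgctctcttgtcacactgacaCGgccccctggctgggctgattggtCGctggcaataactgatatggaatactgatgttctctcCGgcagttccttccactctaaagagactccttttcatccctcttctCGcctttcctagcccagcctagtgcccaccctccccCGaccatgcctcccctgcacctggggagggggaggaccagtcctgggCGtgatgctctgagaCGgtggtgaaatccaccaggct
PPP2R2C (chr4:6557343-6557592, - strand): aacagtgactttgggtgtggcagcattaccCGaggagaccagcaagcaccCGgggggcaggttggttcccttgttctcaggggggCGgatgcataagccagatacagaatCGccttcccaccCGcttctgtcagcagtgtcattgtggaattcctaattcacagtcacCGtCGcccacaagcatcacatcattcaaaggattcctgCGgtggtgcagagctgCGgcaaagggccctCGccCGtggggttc
With the 50 bases after the start included, LOC102725180 had 22 CpGs, PPP2R2C 12 and ANO4 10. Of 35116 promoters of that length, 37.7% held at least 22 CpGs, 53.1% at least 12 and 56.4% at least 10, and the median was 14. The promoter of LOC102723798, another long non-coding RNA overlapping SBNO2, was placed as well, as was an inner start of SBNO2 that had no CpG deep enough in all 3 libraries.

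Over the whole data set the mean level was 44.1% in parental cells, 40.01% in line 1 and 41.9% in line 2. Median depths were 26, 24 and 32 reads per CpG. The 4 windows thus stood against a lower mean in both lines, although the median difference of a CpG from parental was 0 in each. A CpG was called different between 2 libraries at an adjusted p under 0.05 (2-sided Fisher exact test, Benjamini-Hochberg adjustment over all 2744301 CpGs) with a difference of at least 25 percentage points. Of all CpGs, 0.484% were called higher and 3.65% lower in line 1 than in parental cells, and 0.0628% were called higher and 0.54% lower in line 2. In both lines together 0.0435% were called higher and 0.452% lower. Between the knockout lines, line 1 was called above line 2 at 0.141% of CpGs and below it at 0.831%. These shares are the background for the counts below. The sum of reads at a locus, as a share of the reads of its library and relative to parental, was 0.806 to 0.859 in line 1 and 0.772 to 1.29 in line 2, against 0.953 to 1.00 for the whole chromosomes, and the part of such differences in the results was not tested. All reads inside the 4 windows came from the complementary strand, so levels there rest on 1 strand.

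Inside the windows, mean levels were lowest in parental cells, intermediate in line 2 and highest in line 1. In ANO4 the mean over 8 CpGs was 6.92% in parental cells, 71.6% in line 1 and 49.4% in line 2, a knockout mean of 60.5% ± 15.7 (SD, n = 2). In ADCY9 the mean over 9 CpGs was 21.3% in parental cells, 87.8% in line 1 and 66.5% in line 2, a knockout mean of 77.2% ± 15.1 (SD, n = 2). In SBNO2 the mean over 7 CpGs was 27.8% in parental cells, 77.8% in line 1 and 68.1% in line 2, a knockout mean of 72.9% ± 6.82 (SD, n = 2). The order was the same in all 4 windows, with parental lowest and line 1 highest. In PPP2R2C the mean over 7 CpGs was 19.6% in parental cells, 88.3% in line 1 and 59.4% in line 2, a knockout mean of 73.8% ± 20.4 (SD, n = 2). Line 2 was intermediate, above parental and below line 1, at 29 of the 31 CpGs. Both knockout lines were above parental at 31 of 31, and by at least 25 points in both at 28.

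Ranked by the smaller of the gains of the knockout lines among 113178 windows of at least 5 CpGs with 10 reads each, the windows in ANO4, ADCY9, SBNO2 and PPP2R2C stood at ranks 2, 3, 4 and 5. Rank 1 was a window elsewhere on chromosome 12 with 51.8 points, which is not among those described here. The smaller gain was 46.7 points in ANO4, 45.1 in ADCY9, 40.3 in SBNO2 and 39.9 in PPP2R2C. Just outside this set, the window at rank 6 on chromosome 2 had 39.4 points. At 5 reads the ranks were 5, 2, 10 and 11 among 140935 windows, so membership of the set depends on the depth asked for.

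**Figure D1:**
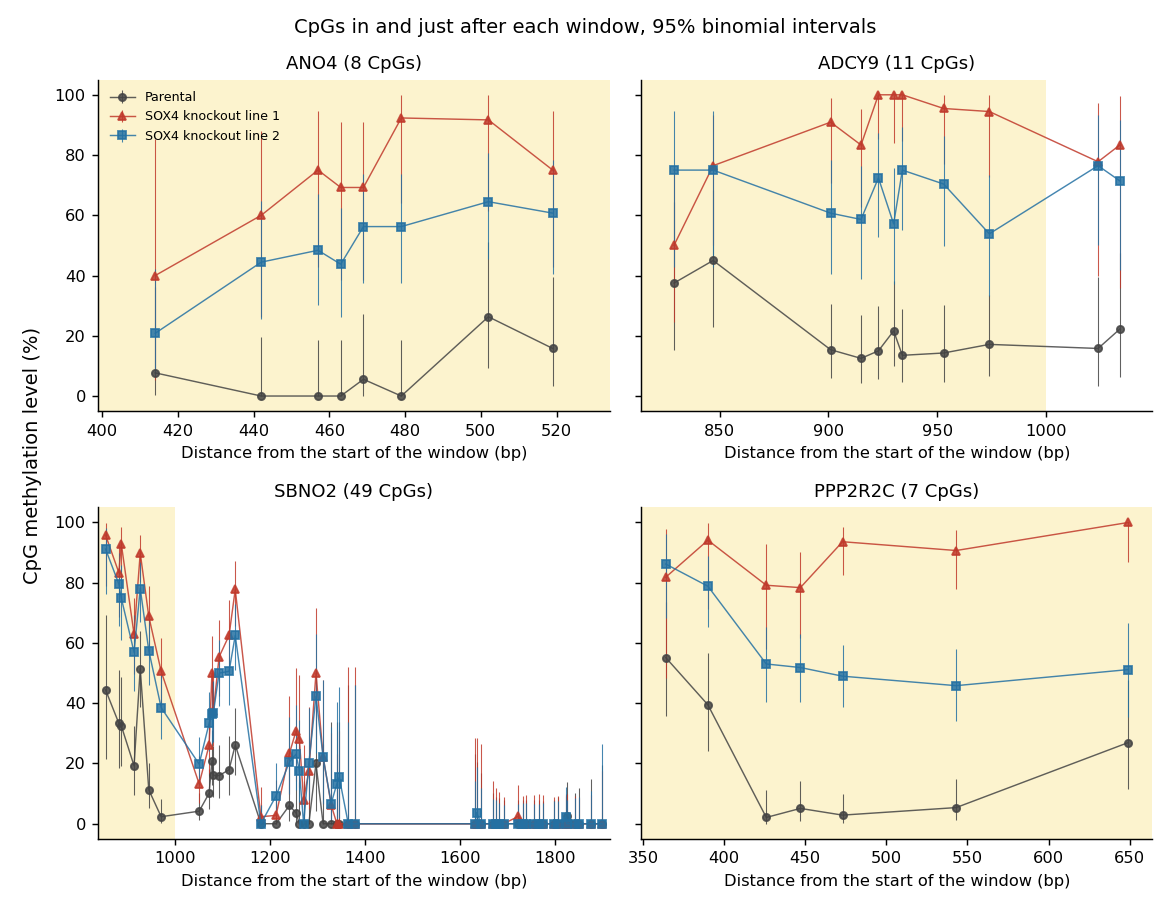
Methylation level (%) of each CpG against its distance from the start of the window (bp; shaded, the window) in parental cells (circles), knockout line 1 (triangles) and knockout line 2 (squares). Bars are exact 95% binomial intervals and lines join neighbouring CpGs. In SBNO2 the 7 CpGs in the window stand above parental in both knockout lines, and the 21 CpGs farthest right lie near 0% in all 3 libraries.

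The span of the gain was measured as the run of neighbouring CpGs that stood at least 25 points above parental in both lines. In ANO4 the run covered 7 CpGs over 78 bp (chr12:101480443-101480520). Its first CpG had 0 of 17 reads methylated in parental cells, 6 of 10 in line 1 and 12 of 27 in line 2. The CpG 28 bp before it, at 101480415, had 1 of 13, 2 of 5 and 5 of 24, so the near edge rests on few reads. The deepest CpG of this window, at 101480464, had 0 of 18 reads methylated in parental cells, 9 of 13 in line 1 and 14 of 32 in line 2. The last CpG of the run, at 101480520, had 3 of 19, 9 of 12 and 17 of 28 reads methylated. No CpG was measured after it within 20 kb, so the far edge of the ANO4 gain is unknown.

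In ADCY9 the run covered 10 CpGs over 188 bp (chr16:4094848-4095035) and reached 35 bp past the window's end. Parental cells had 12.5% at its deepest CpG, at 4094916, against 83.3% in line 1 and 58.6% in line 2, from 40, 24 and 29 reads. At 3 neighbouring CpGs from 4094924 to 4094935 line 1 was methylated in every read (23, 21 and 22 reads), while line 2 had 72.4%, 57.1% and 75.0%. The CpG 18 bp before the run, at 4094830, had 6 of 16 reads methylated in parental cells, 8 of 16 in line 1 and 9 of 12 in line 2. The next measured CpG after the run lay 7809 bp on and was methylated in 14 of 14 parental reads, 8 of 10 in line 1 and 13 of 14 in line 2.

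In SBNO2 the run covered 7 CpGs over 118 bp (chr19:1172854-1172971). Levels fell along it in all 3 libraries: its first CpG had 44.4% in parental cells, 95.8% in line 1 and 91.2% in line 2, and its last, with 86, 83 and 83 reads, had 2.33%, 50.6% and 38.6%. The CpG 80 bp further, at 1173051, had 4.17%, 13.3% and 19.8%. Before the run there was no measured CpG for 2527 bp.

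In PPP2R2C the run covered 6 CpGs over 180 bp (chr4:6371365-6371544). The deepest CpG, at 6371474, had 2 of 70 reads methylated in parental cells, 44 of 47 in line 1 and 48 of 98 in line 2. The CpG 106 bp beyond the run, at 6371650, ended it with 26.9% in parental cells, 100% in line 1 and 51.2% in line 2, where line 2 fell short of the 25 points by a small margin. Before the run there was no measured CpG for 1977 bp. The short runs in PPP2R2C and ANO4 are therefore bounded in part by gaps between measured CpGs and by the threshold.

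**Figure D2:**
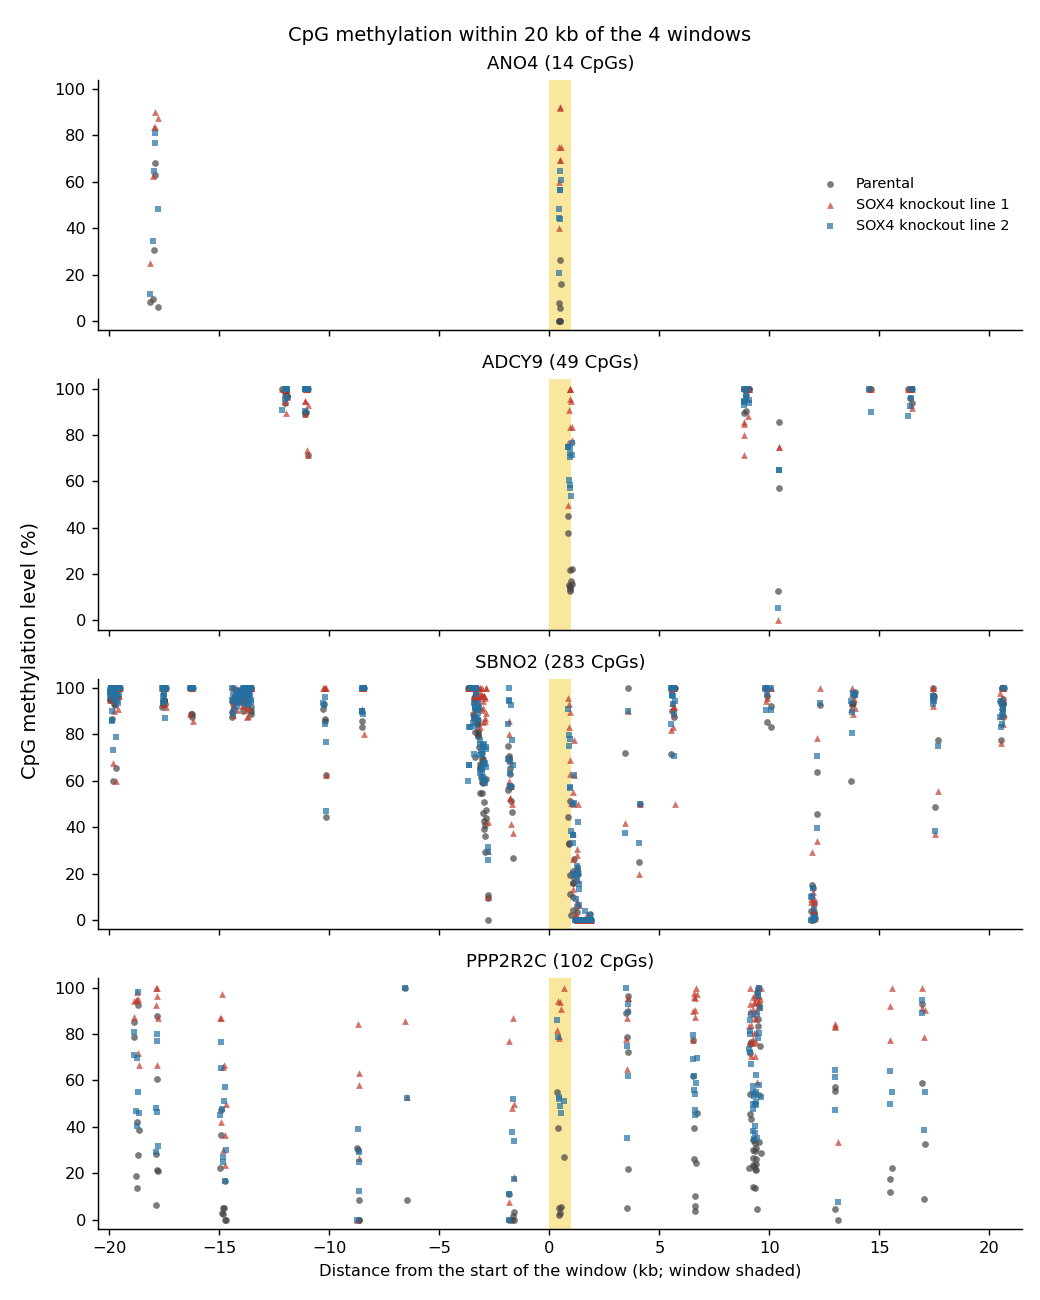
Methylation level (%) of every member CpG against distance from the start of the window (kb; shaded, the window) in parental cells (circles), line 1 (triangles) and line 2 (squares). Most of the 40 flank CpGs of ADCY9 lie high in all 3 libraries, the 2 beside the window apart, while at PPP2R2C the parental points lie below those of line 1 across most of the 41 kb.

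The flanks of the 4 windows differed from one another. The flanks of ANO4 and PPP2R2C stood higher in both knockout lines, those of ADCY9 were flat, and those of SBNO2 changed in a few patches near the window. At ADCY9 most flank CpGs were already near full methylation in parental cells and had little room to rise. In line 1, 85 of the 417 flank CpGs were called higher than parental and 0 lower, with 3 in ANO4, 0 in ADCY9, 26 in SBNO2 and 56 in PPP2R2C. In line 2, 27 were called higher and 0 lower, with 2, 0, 3 and 22 in the same order, and each of these 27 was also called in line 1. The flanks were taken for lying beside windows that had been selected on the same contrast, so nothing is read from these counts against the background shares of 0.484%, 0.0628% and 0.0435%. The count for both lines fell from 27 to 14 when every CpG was thinned to its smallest depth, and to 1 with a difference of 50 points.

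The ANO4 flanks held 6 CpGs, all in 1 patch of 373 bp that began 18176 bp before the window, and all reads came from the forward strand. Their mean was 30.9% in parental cells, 72.1% in line 1 and 52.8% in line 2, in the same order as in the window. At 101462000 the level was 9.33% in parental cells, 62.3% in line 1 and 34.5% in line 2, from 75, 69 and 119 reads. This CpG passed the Fisher exact test in line 1 (adjusted p = 4.42e-09), in line 2 (adjusted p = 0.0140) and between the knockout lines (adjusted p = 0.0261). At 101462022 the levels were 30.7%, 83.8% and 64.5%, called in both lines. Farther out, 3 patches of at least 5 CpGs before and 3 after the window within 200 kb had 0 that stood 25 points higher in either line, and the nearest, 33.8 kb before, had 20.5% in parental cells, 5.01% in line 1 and 11.3% in line 2.

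At the matched start of ANO4, 291 kb before the window, the 10 CpGs averaged 10.01% in parental cells, 28.2% in line 1 and 40.4% in line 2. Here line 2 stood above line 1, the reverse of the window's order, but 0 of the 10 CpGs passed the test between the lines. In line 1, 2 CpGs were called higher than parental and in line 2, 3, against 0.484% and 0.0628% of all CpGs. This start was shown because of its values, so nothing is read from these counts. The CpG 120 bp before the start (101188434) had 1 of 29 reads methylated in parental cells, 13 of 22 in line 1 and 12 of 18 in line 2, and the CpG 229 bp before it (101188325) had 2 of 57, 15 of 42 and 21 of 57; both were called in both lines.

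The flanks of ADCY9 showed no such difference. Their 40 CpGs averaged 89.3% in parental cells, 89.8% in line 1 and 92.2% in line 2. Of these, 2 lay within 35 bp of the window, inside the run, at 19.0%, 80.6% and 73.9%, and neither was called. The 19 CpGs at 5 to 20 kb before the window averaged 95.8%, 94.2% and 98.6%, and the 19 after it 90.3%, 86.3% and 87.7%. The flank CpGs had a median of 97.9% in parental cells, so most had no room for a rise of 25 points. A flat flank was therefore largely fixed by the parental level. Parental cells thus had low methylation at the window, while the nearest patches, 10983 bp before and 7844 bp after it, were methylated. In both knockout lines the level at the window came nearer to theirs. Between those patches and the patch at the window no CpG was measured, so the length of the low stretch is unknown. Of 30 patches before and 19 after the window out to 200 kb, 0 stood 25 points higher in both lines, and 1 after it did in line 1.

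In SBNO2 the 276 flank CpGs averaged 70.7% in parental cells, 76.6% in line 1 and 74.0% in line 2. Just after the window the difference shrank with distance. The 7 CpGs from 1 to 150 bp beyond the window averaged 15.9% in parental cells, 46.0% in line 1 and 41.4% in line 2, and 3 of them were called in both lines. The next 14, from 151 to 400 bp, averaged 2.12%, 13.6% and 13.6%. The 21 CpGs from 401 to 1000 bp had 0.125%, 0.116% and 0.287%, with no CpG above 3.70% in any library. The gain had thus ended by 632 bp, the first of the 21, and no CpG was measured between it and 379 bp, the last of the 14. Of the 14, 8 were higher in both lines, with 0 called and 0 standing 25 points higher in both. Where the gain ended before 632 bp is therefore not fixed. At 1173127, the last of the 3 called, the level was 26.2% in parental cells, 77.8% in line 1 and 62.5% in line 2.

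Before the SBNO2 window the knockout lines parted from each other. A patch of 52 CpGs that ended 2775 bp before the window (chr19:1168314-1169226) averaged 70.2% in parental cells, 92.3% in line 1 and 76.4% in line 2. In line 1, 22 of its CpGs were called higher than parental, in line 2 none was (0), and 7 were called higher in line 1 than in line 2. The patch holds the matched start of LOC102725180. The 28 CpGs before that start averaged 88.7%, 97.3% and 87.1%, whereas the 24 from the start on averaged 48.7% in parental cells, 86.5% in line 1 and 64.0% in line 2. Thus the low stretch in parental cells lay downstream of the printed bases. At 1169084 the level was 36.0% in parental cells, 95.8% in line 1 and 59.1% in line 2, and it passed the Fisher exact test between the knockout lines (adjusted p = 0.00103).

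The next patch, 12 CpGs that ended 1674 bp before the window, averaged 59.1% in parental cells, 59.5% in line 1 and 77.2% in line 2. Here line 2 stood apart and line 1 did not, though 0 of the 12 CpGs were called in any comparison. The 111 CpGs at 5 to 20 kb before the window were high throughout, at 94.9%, 96.0% and 95.7%, and 10 measured CpGs at the matched start of LOC102723798, 8333 bp before the window, had 96.9%, 97.1% and 95.8%. Of 61 patches before and 52 after the window out to 200 kb, 0 stood 25 points higher in either line. Patches near full methylation in parental cells, such as the nearest before the window at 99.3%, could not rise by 25 points. The nearest after it, at 10.7% in parental cells, could. The count of 0 is thus partly fixed by the parental level and does not show that the gain was local.

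**Figure D3:**
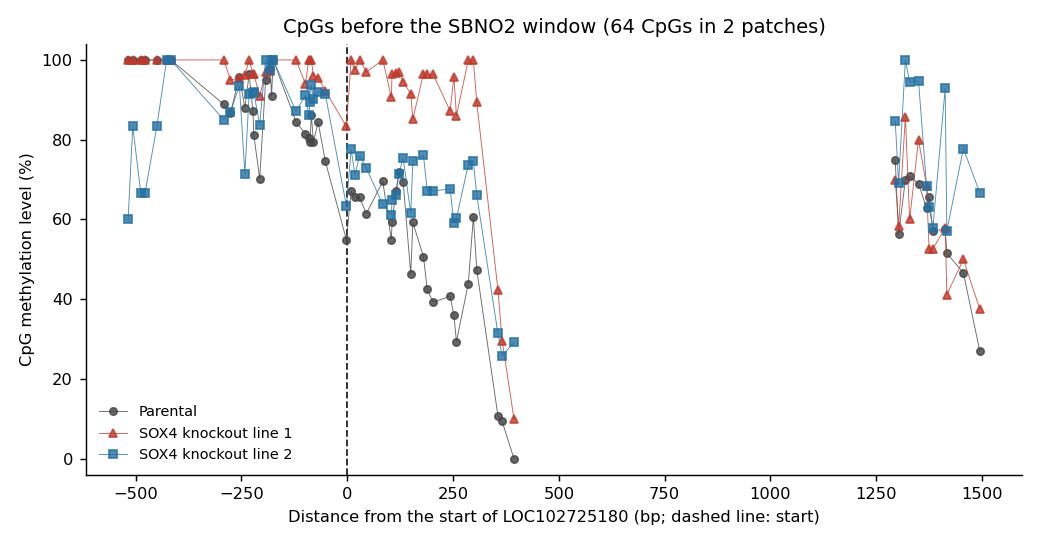
Methylation level (%) of the 64 CpGs in the 2 patches nearest before the SBNO2 window, against distance from the matched start of LOC102725180 (bp; dashed line, the start), in parental cells (circles), line 1 (triangles) and line 2 (squares). Lines join the CpGs of a patch; line 1 stands above the others at most CpGs after the start, and line 2 has the highest mean in the patch on the right.

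At PPP2R2C the higher level was not bound to the window. The 95 flank CpGs averaged 35.8% in parental cells, 79.5% in line 1 and 56.4% in line 2. The nearest CpGs before the window, 6 in a patch that ended 1613 bp away, averaged 2.64%, 48.0% and 25.3%. At 6369351 the level was 1.49% in parental cells, 87.0% in line 1 and 52.0% in line 2, from 67, 46 and 75 reads. Another CpG of the patch, at 6369168, stayed at 0% in parental cells and line 2 and had 7.69% in line 1, so single CpGs within the patch differed widely. On the other side, the 52 CpGs at 5 to 20 kb after the window averaged 40.1%, 87.5% and 62.1%. At 6386488, 14488 bp after the window, the level was 17.5% in parental cells, 92.0% in line 1 and 63.8% in line 2.

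The stretch was then followed out to 200 kb in patches of at least 5 CpGs. The farthest patches that stood at least 25 points above parental in both lines lay 39.5 kb before and 93.3 kb after the window, 134 kb in all (chr4:6331162-6465553). Between these ends, 21 of 22 patches stood at least 25 points above parental in line 1, and 9 did so in both lines. In all 22 patches line 2 was intermediate, above parental and below line 1. The gain of line 2 was a median of 0.474 of that of line 1, from 0.226 to 0.679. Over all 268 CpGs of the stretch the mean was 26.0% in parental cells, 76.2% in line 1 and 50.2% in line 2. The 166 of these CpGs that lay more than 20 kb from the window, outside the set fixed by distance, averaged 20.6%, 73.8% and 46.3%, and the ends of the stretch were placed by the same values.

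The end of the PPP2R2C stretch after the window was seen in both lines, while the end before the window was placed by the threshold. After the window, the patch at 93.3 kb had 30.02% in parental cells, 88.0% in line 1 and 58.3% in line 2, and the next, at 100.1 kb, had 5.23%, 6.93% and 7.59%. Before it, levels at 39.5 kb were 9.72%, 53.8% and 37.6%, at 42.6 kb 62.9%, 80.8% and 79.6%, and at 45.7 kb 85.5%, 90.4% and 89.2%. At 42.6 kb line 1 still stood 17.8 points above parental and line 2 16.6, and at 45.7 kb 4.96 and 3.76. The gain of line 2 at 42.6 kb was larger than in some patches inside the stretch. Where the higher level ended on that side is therefore not fixed. Parental cells were already methylated there, and the end after the window lay where all 3 libraries were low. One patch at 63.7 kb before the window was lower in both knockout lines, at 90.0% in parental cells, 62.5% in line 1 and 65.0% in line 2. PPP2R2C is read from the reverse strand. Other starts of it, with 59 and 38 CpGs among them, could not be placed, so their distances and levels are not given. Its matched start lay 185 kb after the window, 91.8 kb past the end of the stretch. The 12 CpGs there averaged 35.8%, 30.4% and 30.1%, and 0 were called higher in either line. Lower levels were called at 2 of them in line 1 and at 1 of these in line 2 as well, the CpG 139 bp before the start (6557481), with 62.7% in parental cells, 32.1% in line 1 and 33.7% in line 2. Of all CpGs, 3.65% were called lower in line 1, 0.54% in line 2 and 0.452% in both, and nothing is read from these counts.

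**Figure D4:**
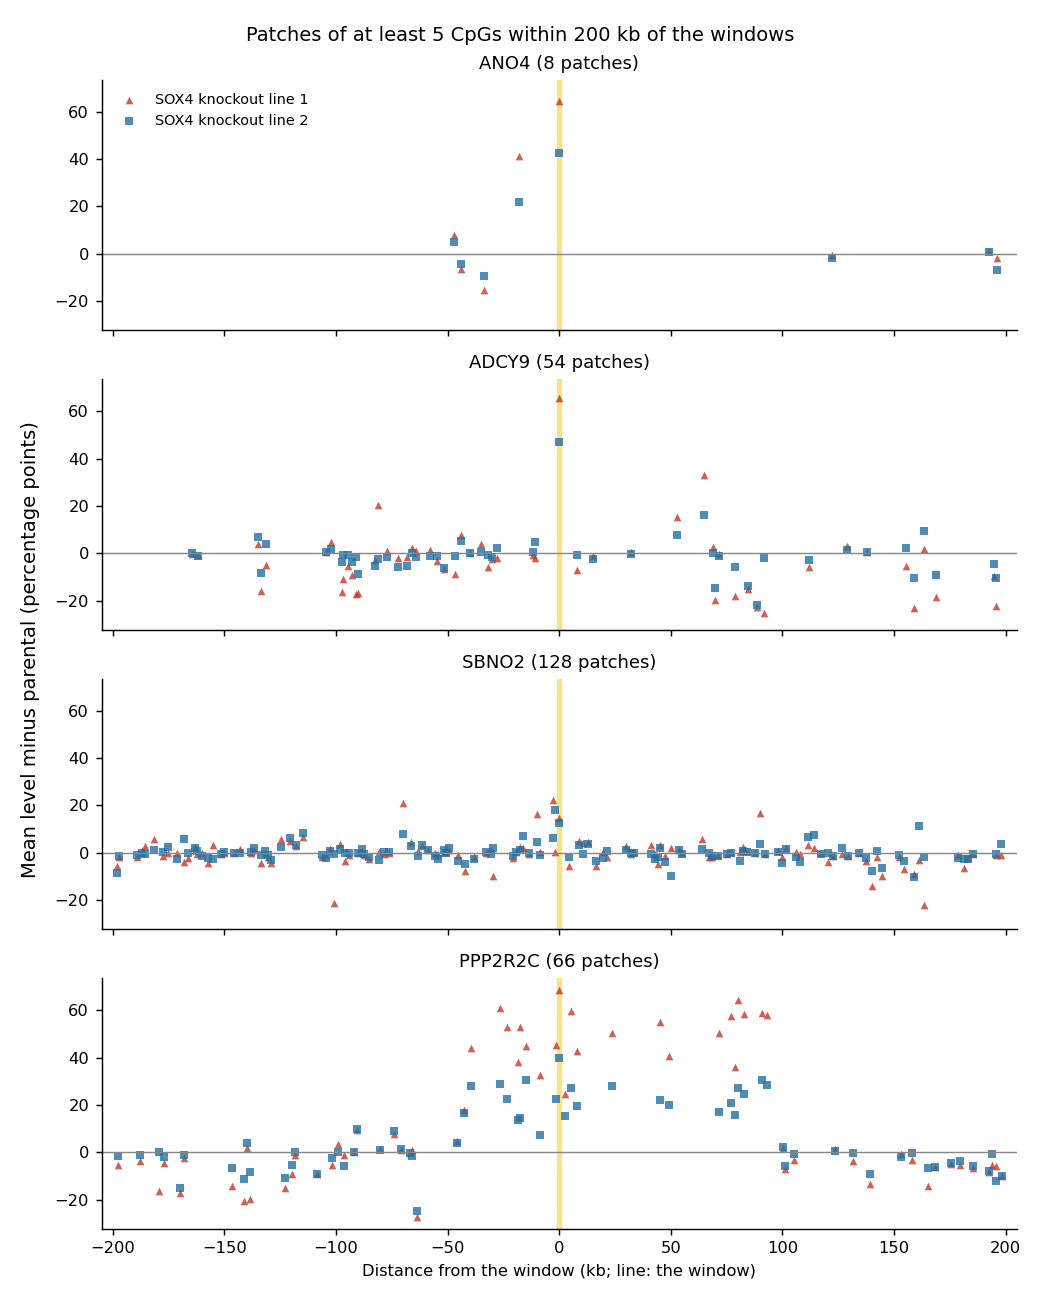
Mean level of each patch of at least 5 CpGs minus the parental mean of the same CpGs (percentage points) against distance from the window (kb) in line 1 (triangles) and line 2 (squares); the vertical line marks the window. At PPP2R2C the patches of both lines lie above 0 from 39.5 kb before to 93.3 kb after the window, and at the other loci 1 patch beyond 20 kb, in ADCY9, stands at least 25 points higher in line 1 and 0 do in line 2. Patches near full methylation in parental cells had no room to stand 25 points higher.

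The flanks were also set beside those of other windows. Of 119 windows with at least 25 points of gain in both lines, 109 had at least 5 CpGs in the flanks from 1 to 20 kb away. Over the 105 others, the mean gain of the knockout lines in those flanks had a median of 1.03 points (quartiles -0.58 and 5.64, range -9.66 to 51.3), and 10 of them reached 25 points. Of these 10, 6 lay in the PPP2R2C stretch itself and 4 on chromosome 10, so few separate stretches are behind the count. The flanks of PPP2R2C, with 32.1 points, stood at rank 8 of 109, with 4 of the 7 windows above it in its own stretch, those of ANO4, with 31.6 points over 6 CpGs, at rank 10, those of SBNO2, with 3.81, at rank 36 and those of ADCY9, with -1.35, at rank 93. Windows that lie close together share flank CpGs in this ranking, and all of them were selected by their own gain. Flanks already high in parental cells, as at most CpGs of ADCY9 and SBNO2, had little room to gain. Their low ranks were thus partly fixed by the parental level.

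The knockout lines were last compared directly, a contrast that the choice of windows did not use as such, though the choice favours CpGs high in both. Of the 448 CpGs, 41 were called higher in line 1 than in line 2 and 0 lower, against 0.141% and 0.831% of all CpGs. These were 32 at PPP2R2C, 7 at SBNO2, 1 at ADCY9 and 1 at ANO4, of which 4 lay inside windows. The single calls at ADCY9 and ANO4 were lost (0 each) at an adjusted p under 0.01, at 50 points and when every CpG was thinned to its smallest depth. The CpGs of a locus share reads and are not independent, so the 32 at PPP2R2C describe 1 stretch. In the windows line 1 exceeded line 2 by 22.2 points in ANO4, 21.4 in ADCY9, 9.65 in SBNO2 and 28.8 in PPP2R2C. Inside the PPP2R2C window the deepest CpG had 93.6% in line 1 and 49.0% in line 2 (Fisher exact test, adjusted p = 3.02e-05), and in the ADCY9 window the CpG at 4094931 had 100% and 57.1% (adjusted p = 0.0381). In the flanks the largest called gap at PPP2R2C was at 6369166, with 76.9% of 13 reads in line 1 and 11.1% of 18 in line 2, the same as in parental cells. The CpG next to it had 7.69% in line 1 and 0% in line 2, so this gap rests on a single CpG with few reads. Line 1 thus stood above line 2 in each window mean, and at PPP2R2C in each of the 22 patches of the stretch. This order was not particular to these loci. The window at rank 1, on chromosome 12, had 96.3% in line 1 and 76.3% in line 2. At rank 6, on chromosome 2, the levels were 76.7% and 65.8%. The shares over all CpGs, more of which were called lower than higher in the knockout lines, are therefore an unlike background for loci picked for a gain.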

How the data were processed

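Methylation was measured by capture bisulfite sequencing (TruSeq Methyl Capture EPIC) in 3 Hep3B libraries. The authors deposited, for each cytosine on each strand, counts of reads (total, in context and methylated), not normalized, and a methylation level as a fraction; the levels here were recomputed from the deposited counts. The aligner and caller are not given in the sources used here, nor is any removal of PCR duplicates. The submitters' processing notes name GRCh37. The members and lists were chosen with earlier results of these data known.

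Context reads of both strands were summed per CpG (position of the forward-strand C), and a CpG was kept at 5 or more reads in each of the 3 libraries. A level of a stretch is the unweighted mean over its CpGs. Libraries were compared per CpG by a 2-sided Fisher exact test with Benjamini-Hochberg adjustment over 2744301 CpGs, called at an adjusted p under 0.05 and 25 percentage points. Patches are CpGs with gaps of at most 500 bp, a rule set with the values in view, like the reach of 200 kb, the bins after the SBNO2 window and the placing of promoters. Per window, the text names the deepest CpG (greatest smallest depth), the ends of the run and the first CpG beyond each; in the flanks, CpGs called in both lines (all if at most 5, otherwise the 2 with the largest smaller difference) and the called CpG with the largest gap between the knockout lines. CpGs at 4094924 to 4094935 and 6369168, in ADCY9 and PPP2R2C, and those of the ANO4 start were named after their values were seen.

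RefSeq promoters (GRCh38.p14 table) were placed only where at least 10 of their CpGs matched the measured positions by spacing, at 1 place in the genome. For ANO4, SBNO2 and PPP2R2C other starts in the table could not be placed, and ADCY9 has no entry there. An annotation of GRCh37 was not used here, so exons and introns are not given. The files hold 104702738, 96987706 and 133170621 CpG reads for parental, line 1 and line 2. Intervals are exact 95% binomial and cover counting error only. The code was tested on simulated data. Alternatives covered the coverage minimum, the difference called, the adjusted p, strands, read weighting, thinning and leaving out a knockout line. The scripts ran in Python 3.11.15 with scipy 1.17.1, numpy 2.4.6, numba 0.67.0, pandas 2.3.3 and matplotlib 3.10.9.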

Additional observations from a re-analysis of the deposited data

Results flagged for a closer look

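CpGs that differed between the knockout lines by the Fisher exact test of line 1 against line 2, which compares 1 library of each, lay mainly at PPP2R2C and SBNO2. At PPP2R2C 32 CpGs were called higher in line 1, at SBNO2 7, at ADCY9 1 and at ANO4 1, and 0 were called lower at any of them. The 7 at SBNO2 lay in the patch that holds the start of LOC102725180. With a difference of 50 points instead of 25, 6 of the 41 calls were left, all at PPP2R2C. At ANO4 and ADCY9 the single call was also lost at an adjusted p under 0.01 and after thinning to the smallest depth, where 5 and 5 calls were left at SBNO2 and 25 and 26 at PPP2R2C.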

How the results depend on the processing

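No paired analysis was possible because only 1 parental library was measured. The window differences from parental kept their direction and moved by less than 1 SD of the knockout lines under every other coverage minimum or weighting that gave a value. The complementary strand alone gave the same values because all window reads came from it, so the strand setting tested nothing there. With 2 lines, leaving one out moves their mean by less than 1 SD by construction, so that outcome bears on nothing. Extents depended most on the rule. With a difference of 10 points the runs measured 18521 bp in ANO4, 2645 bp in SBNO2 and 2351 bp in PPP2R2C, since they then crossed gaps with no measured CpG. With 50 points they measured 11 bp in ANO4, 20 bp in ADCY9 and 1 bp in PPP2R2C, and SBNO2 had no run. Allowing 1 CpG below the difference gave 18324 bp in ANO4 and 2245 bp in PPP2R2C. A coverage minimum of 20 gave 53 bp in ADCY9 and 118 bp in PPP2R2C, and differences of line 1 from line 2 of 29.2 points in the ADCY9 window and 38.2 in the PPP2R2C window. Leaving out a knockout line gave runs of 78 to 18324 bp in ANO4, 188 to 12018 bp in ADCY9, 118 to 2684 bp in SBNO2 and 180 to 286 bp in PPP2R2C, the longer ones without line 2 in ANO4 and PPP2R2C and without line 1 in the others. The flank difference at ADCY9, 1.63 points, turned to -0.94 at a coverage minimum of 10 and was 3.59 with read-weighted means, and that at SBNO2, 4.52 points, fell to 1.83 on the forward strand alone. The summed flank counts fell at 50 points to 55 (line 1), 1 (line 2) and 1 (both), and the count between the knockout lines to 6. Thinning gave 14 for line 2 and 14 for both. Without line 1 the count for both lines was 27, and without line 2 it was 85. The ANO4 window had no CpG with 20 reads in all libraries, no window had 5 reads on the forward strand, and the cause of these moves was not tested.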
